A study of Arabidopsis thaliana with 9 samples.

Results

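Shoots returned to iron after a period without it (Fe resupply) were compared with shoots that never lacked iron (+Fe), to see which small RNA (sRNA) levels still differed once iron was back. The comparison used 6 of the 9 sRNA-seq libraries of the study, 3 Fe resupply and 3 +Fe, and the 3 libraries of shoots without iron (-Fe) entered through the shared estimate of the spread and as values beside the others. All libraries came from whole shoots of wild-type Arabidopsis thaliana, accession Col-0, with 3 biological replicates of each condition. Fe resupply plants spent 14 days with iron, 3 days without and the last 24 hours with iron again. The -Fe plants had the same 14 days with iron and then no iron for both later periods. The +Fe plants were moved to new medium at the same 2 times but always had iron. Only this 1 time after resupply was sampled, so a level that had not returned by then may or may not return later.

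The table held 33171 features, of which 33159 were tested and 12 were left out because each had 1 value in all libraries. The tested features were 29053 genomic clusters of sRNA reads, 314 miRNA entries and 3792 sequences that have no genome position. Values are log2 normalized levels, so a difference of 1 is a doubling. A feature passed when its false discovery rate was below 0.1 and its log2 fold change was 0.5 or more in either direction. Replicate libraries correlated between 0.994 and 0.996. Fe resupply replicate 2 had the lowest median value of the 9 libraries (3.83, against 3.85 and 3.86 in the other Fe resupply libraries and 3.85 to 3.87 in +Fe). The 10 features with the highest mean over the 9 libraries took 70.1% of its back-transformed total of all features. They took 72.3% and 73.4% in the other Fe resupply libraries and 71.8% to 72.3% in +Fe. The 12 chloroplast clusters took between 20% and 22% of the total over clusters in each of the 6 libraries. In whole shoots, fewer cells of a type and less RNA per cell cannot be told apart.

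Plant miRNAs are single-stranded RNAs that guide cleavage of matching mRNAs, while most heterochromatic small interfering RNAs are made from repeats and act on DNA methylation. The miRNAs miR397, miR398, miR408 and miR857 accumulate when copper is short, under the transcription factor SPL7, and target mRNAs of copper proteins: copper/zinc superoxide dismutases and their chaperone (miR398), laccases (miR397, miR857 and miR408) and plantacyanin (miR408). Copper/zinc and iron superoxide dismutases do the same reaction in the chloroplast with a different metal. Fragments of tRNA and rRNA are also abundant in shoot sRNA libraries.

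Of the 33159 features, 42 passed in Fe resupply against +Fe (0.127%), 11 higher (0.0332%) and 31 lower (0.0935%) in Fe resupply. In all 42 the 3 Fe resupply values lay on one side of the 3 +Fe values, which was so for 11.1% of all tested features. The 42 were selected on these same values, so their separation is no separate test. Without a limit on the fold change 58 features passed (0.175%), and 2199 had an unadjusted p under 0.05. The median log2 fold change of all features was -0.00, the middle 95% of them lay between -0.26 and 0.20, and 0.419% differed by 0.5 or more. In the same fit 167 features (0.504%) passed when -Fe was set against +Fe, and 175 (0.528%) when Fe resupply was set against -Fe. These 3 comparisons share libraries.

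The 42 features fell unevenly over the row types. Of the 314 miRNA entries 8 passed (2.55%), 1 higher and 7 lower. Of the 29053 clusters 21 passed (0.0723%), 4 higher and 17 lower, and of the 3792 sequences without a position 13 passed (0.343%), 6 higher and 7 lower. Each of the 8 miRNA entries that passed had a passing cluster at its own gene, so the 2 sets measure the same loci. With miRNA entries left out of the fit 33 features passed.

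**Figure D1:**
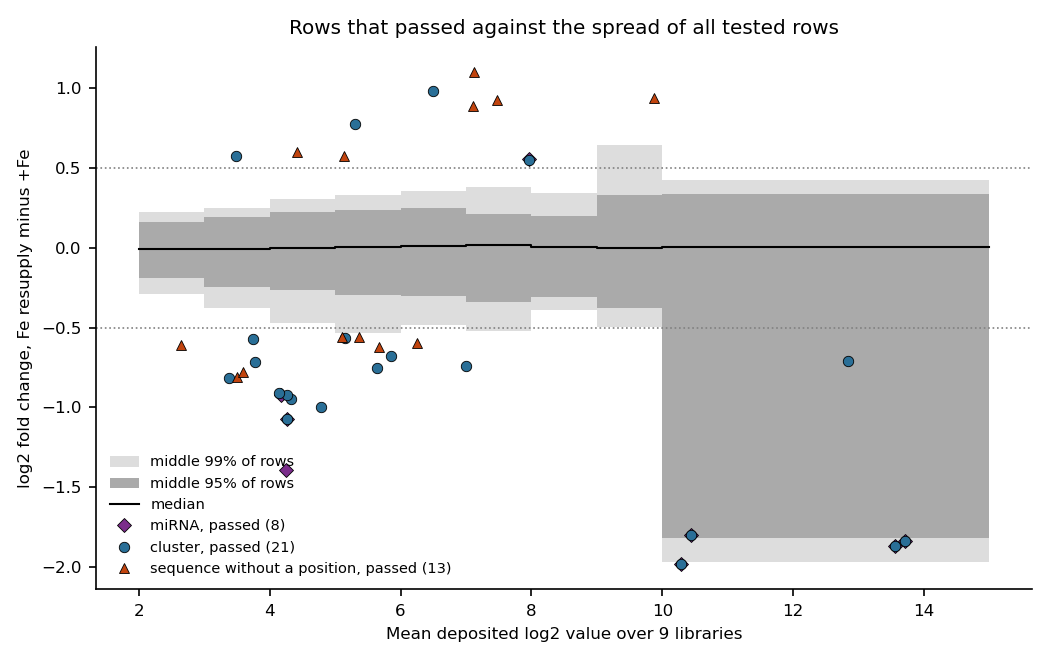
Log2 fold change of Fe resupply minus +Fe (vertical) against the mean deposited log2 value over 9 libraries (horizontal). Symbols are the 42 features that passed (8 miRNA entries, 21 clusters, 13 sequences without a position), the darker band holds the middle 95% of all tested features in each range of level, the lighter band nearly all of them, and the line is their median. Features at 10 and above are in 1 band, which the miR398 and miR408 features themselves stretch downward, and the dotted lines mark 0.5 in each direction.

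The 7 miRNA entries lower in Fe resupply were the 7 tested entries of miR398, miR408, miR397 and miR857. All copper-regulated miRNA entries thus passed as lower, against 0.0935% of all tested features. These families were listed with earlier results of these data known. The entries of miR398b and miR398c give the same RNA, so the 7 are not independent. Their mature sequences are shown as the most abundant RNA of each cluster, with bases 2 to 8 (the seed) in capitals. The 3 miR398 RNAs share a seed and so do both miR397 RNAs, while miR408 and miR857 each have their own. The miR822 sequence is the entry that was higher.
miR398a: uGUGUUCUcaggucaccccua
miR398b: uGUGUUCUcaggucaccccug
miR398c: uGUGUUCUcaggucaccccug
miR408: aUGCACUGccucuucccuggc
miR397a: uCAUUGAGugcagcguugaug
miR397b: uCAUUGAGugcaucguugaug
miR857: uUUUGUAUguugaagguguau
miR822: uGCGGGAAgcauuugcacaug

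All positions are on TAIR10.1 and lie in annotated miRNA genes. The miR398a RNA spans chr2:1041012-1041032 and differs from the genome at its last base (A21T, counted from 1 at the 5′ end, RNA base first). At that same base it also differs from the miR398b and miR398c RNAs, and only there. Whether its reads come from MIR398a cannot be told by this sequence. The miR398b RNA is at chr5:4691107-4691127 and the miR398c RNA at chr5:4694778-4694798. The miR408 RNA is at chr2:19319933-19319953, the miR397a RNA at chr4:2625960-2625980, the miR397b RNA at chr4:7878730-7878750, the miR857 RNA at chr4:7878198-7878218 and the miR822 RNA at chr5:897287-897307. The last 3 are read from the minus strand and the others from the plus strand.

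miR398 had the largest falls. MIR398a had log2 values of 9.12, 10.01 and 9.36 in Fe resupply and 9.81, 10.04 and 9.82 in -Fe, against 11.59, 11.42 and 11.43 in +Fe. The highest Fe resupply value, in replicate 2, was still over 1 log2 unit below the lowest +Fe value. Its log2 fold change against +Fe was -1.98 ± 0.15 (SE), or 3.95-fold lower (limma, Benjamini-Hochberg adjusted p = 1.66e-07).

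MIR398b, among the most abundant miRNAs here, had 12.41, 13.45 and 12.63 in Fe resupply and 13.16, 13.22 and 13.03 in -Fe, against 14.77, 14.58 and 14.74 in +Fe. MIR398c, which gives the same mature RNA, had 12.59, 13.58 and 12.78 in Fe resupply and 13.35, 13.40 and 13.21 in -Fe, against 14.90, 14.70 and 14.87 in +Fe. Reads of an identical mature RNA cannot be split between these 2 genes, so they count as 1 measurement. In both, replicate 2 was the Fe resupply library nearest to +Fe. The log2 fold changes were -1.87 ± 0.16 and -1.84 ± 0.16 (SE).

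MIR408 had 9.59, 9.92 and 9.72 in Fe resupply and 10.15, 9.99 and 9.96 in -Fe, against 11.43, 11.60 and 11.60 in +Fe. The Fe resupply and +Fe libraries were more than 1 log2 unit apart and the spread within each group was small (SD 0.16 and 0.10, n = 3 each). MIR408 differed by -1.80 ± 0.10 (SE), 3.48-fold lower, with the lowest adjusted p of all features (limma, Benjamini-Hochberg adjusted p = 8.07e-10).

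The remaining copper-regulated miRNAs were low in abundance, where values of this kind vary little. MIR397a had 3.70, 3.83 and 3.73 in Fe resupply and 3.89, 3.92 and 3.79 in -Fe, against 4.97, 5.05 and 5.42 in +Fe, a log2 fold change of -1.40 ± 0.11 (SE). MIR397b had 3.89, 3.96 and 4.01 in Fe resupply and 3.86, 3.82 and 3.71 in -Fe, against 4.82, 5.08 and 5.17 in +Fe, a log2 fold change of -1.07 ± 0.10 (SE). Both sets of 3 Fe resupply libraries were tightly grouped and well below +Fe. MIR857 had 3.93, 3.78 and 3.84 in Fe resupply and 3.87, 3.83 and 3.90 in -Fe, against 4.22, 5.05 and 5.05 in +Fe. Here +Fe replicate 1 lay near the other conditions. The log2 fold change was -0.92 ± 0.15 (limma, Benjamini-Hochberg adjusted p = 0.00781) and missed the threshold without +Fe replicate 3 (-0.78, adjusted p = 0.105).

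None of these 7 entries passed in Fe resupply against -Fe, where log2 fold changes ran from -0.39 (MIR398a) to 0.16 (MIR397b), with limma adjusted p (Benjamini-Hochberg) of 0.247 or more. That p does not show that the levels were equal. For the 6 miR398, miR408 and miR397 entries, the Fe resupply against +Fe difference passed in each of the 6 fits that left out 1 of the compared libraries. The cluster at MIR397a, which also overlaps the transporter gene ENT6, showed a smaller difference than the miRNA entry, at -0.76 ± 0.12 (SE).

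RNAs that share sequence with these miRNAs were lower too. The passing ones are shown with the longest unbroken run of bases shared with miR408 or miR398 in capitals, because they match the miRNA over most of their length.
miR408 variant: UGCACUGCCUCUUCCCUuuu
ARPN cluster: UGCACUGCCUCUUCCCUuu
miR398 variant 1: UGUGUUCUCAGGUCACCCug
miR398 variant 2: UGUGUUCUCAGGUCACCCCca

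The miR408 variant and the ARPN cluster RNA hold 17 bases of miR408, from base 2 to base 18, so they lack its first base, and then run into U. The miR398 variants hold the first 18 and 19 bases of miR398. After its 18 bases, variant 1 ends in the same UG as miR398b and miR398c, so it differs from them by 1 missing C. miR398 variant 1 had 3.20, 3.52 and 3.12 in Fe resupply, against 4.16, 4.01 and 4.01 in +Fe, and variant 2 had 3.14, 3.43 and 3.10, against 4.32, 3.82 and 3.96. The miR408 variant had 2.37, 2.5 and 2.32 in Fe resupply, against 3.12, 3.13 and 2.76 in +Fe. In each of the 3 the groups did not overlap, and the log2 fold changes were -0.78, -0.81 and -0.61. Of all sequences without a position that hold the leading bases of these miRNAs, 3 shared miR398 bases and 3 shared miR408 bases. All 6 lay below +Fe without overlap (background 5.73% of features), 3 passed, and the other 3 had log2 fold changes of -0.36 to -0.45. The 6 were gathered after the passing members were seen. They are forms of miR398 and miR408, so they are not independent of each other or of those miRNAs.

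Cluster_5119 is at chr2:827571-827758 inside ARPN, the plantacyanin gene that miR408 targets. ARPN lies on the minus strand, while the most abundant RNA of the cluster maps to the plus strand at chr2:827697-827715 with 1 substitution (T19G), so it is antisense to the gene and is the miR408-like RNA printed above. Reads from MIR408 and from ARPN cannot be told apart by this sequence. It had 3.20, 2.99 and 2.97 in Fe resupply and 3.06, 3.21 and 3.32 in -Fe, against 3.76, 3.98 and 3.86 in +Fe. Its log2 fold change was -0.82 ± 0.10 (limma, Benjamini-Hochberg adjusted p = 0.000126).

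Clusters at the superoxide dismutase genes moved in both directions. Clusters at the same gene are stretches of 1 locus, so they are not independent of each other. Of the 14 clusters at 5 of the 13 listed copper protein and SPL7 genes, 1 was higher (background 0.0332%) and 1, at ARPN, lower (background 0.0935%), and the median log2 fold change was 0.28, against -0.00 for all features. The one that rose is Cluster_8876, at chr2:12014377-12014841 in CSD2, the chloroplast copper/zinc superoxide dismutase that miR398 targets. Its most abundant RNA is 22 nt long, maps at chr2:12014755-12014776 and has the sense of the gene, so it is not miR398 itself.
CSD2 cluster RNA: gugcuuaaagguacuucugaug
FSD1 cluster RNA, Cluster_3948: aaauuucugaacaauuugacuuc
FSD1 cluster RNA, Cluster_3950: aaacaaacucuggaguuucacugg

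Cluster_8876 had 3.82, 3.46 and 3.81 in Fe resupply and 3.76, 3.56 and 3.64 in -Fe, against 3.14, 3.11 and 3.11 in +Fe. The +Fe libraries were nearly identical and Fe resupply replicate 2 was nearest to them. It differed by 0.57 ± 0.10 (limma, Benjamini-Hochberg adjusted p = 0.0182), and it missed the threshold without Fe resupply replicate 3 (adjusted p = 0.154) or without +Fe replicate 3 (adjusted p = 0.105).

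CSD2 holds 6 clusters, all with a sense RNA as the most abundant. In all 6 the Fe resupply libraries lay above +Fe (background 5.35%), with log2 fold changes of 0.22 to 0.64, but only Cluster_8876 passed. As stretches of a single gene, the 6 are not independent. The largest difference was at Cluster_8881, with 4.09, 3.33 and 4.12 in Fe resupply and 3.77, 3.83 and 3.87 in -Fe, against 3.24, 3.21 and 3.17 in +Fe. Replicate 2 again lay between the others and +Fe, and the adjusted p was 0.114 (limma, Benjamini-Hochberg). At CSD1, the cytosolic copper/zinc superoxide dismutase and also a miR398 target, all 3 clusters lay above +Fe without overlap, at 0.15 to 0.39, and none passed. At CCS, the chaperone that inserts copper into these enzymes, the single cluster differed by 0.02 ± 0.11 (SE).

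FSD1 encodes the iron superoxide dismutase that is used when copper is short. Of the 5 clusters at 2 of the 3 listed iron superoxide dismutase genes, 3 were lower (background 0.0935%) and none higher (background 0.0332%). All 3 were at FSD1, so they are not independent. Cluster_3950, at chr4:12885489-12885680, had 4.07, 4.01 and 4.10 in Fe resupply and 4.01, 3.87 and 3.85 in -Fe, against 4.88, 5.15 and 4.98 in +Fe. Cluster_3948, at chr4:12884411-12884861, had 4.10, 4.08 and 3.93 in Fe resupply and 3.75, 3.87 and 3.81 in -Fe, against 4.89, 4.89 and 5.10 in +Fe. The log2 fold changes of these 2 clusters were -0.94 ± 0.10 and -0.92 ± 0.09 (SE), 1.92-fold and 1.89-fold lower, and both passed in each of the 6 fits that left out 1 library. Their most abundant RNAs, of 24 and 23 nt, match the genome exactly on the minus strand, which is the coding strand of FSD1.

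Cluster_3949, between them, had 3.83, 3.49 and 3.36 in Fe resupply, against 3.99, 4.45 and 4.4 in +Fe (log2 fold change -0.72, limma adjusted p = 0.025 by Benjamini-Hochberg). It passed in 3 of the 6 fits without 1 library, and its adjusted p was 0.214 without Fe resupply replicate 3, 0.110 without +Fe replicate 2 and 0.193 without +Fe replicate 3. The remaining FSD1 cluster, Cluster_3951, was lower by 0.33 log2 units without overlap, under the fold limit. The cluster at FSD2, another chloroplast iron superoxide dismutase, differed by -0.03 ± 0.09 (SE).

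**Figure D2:**
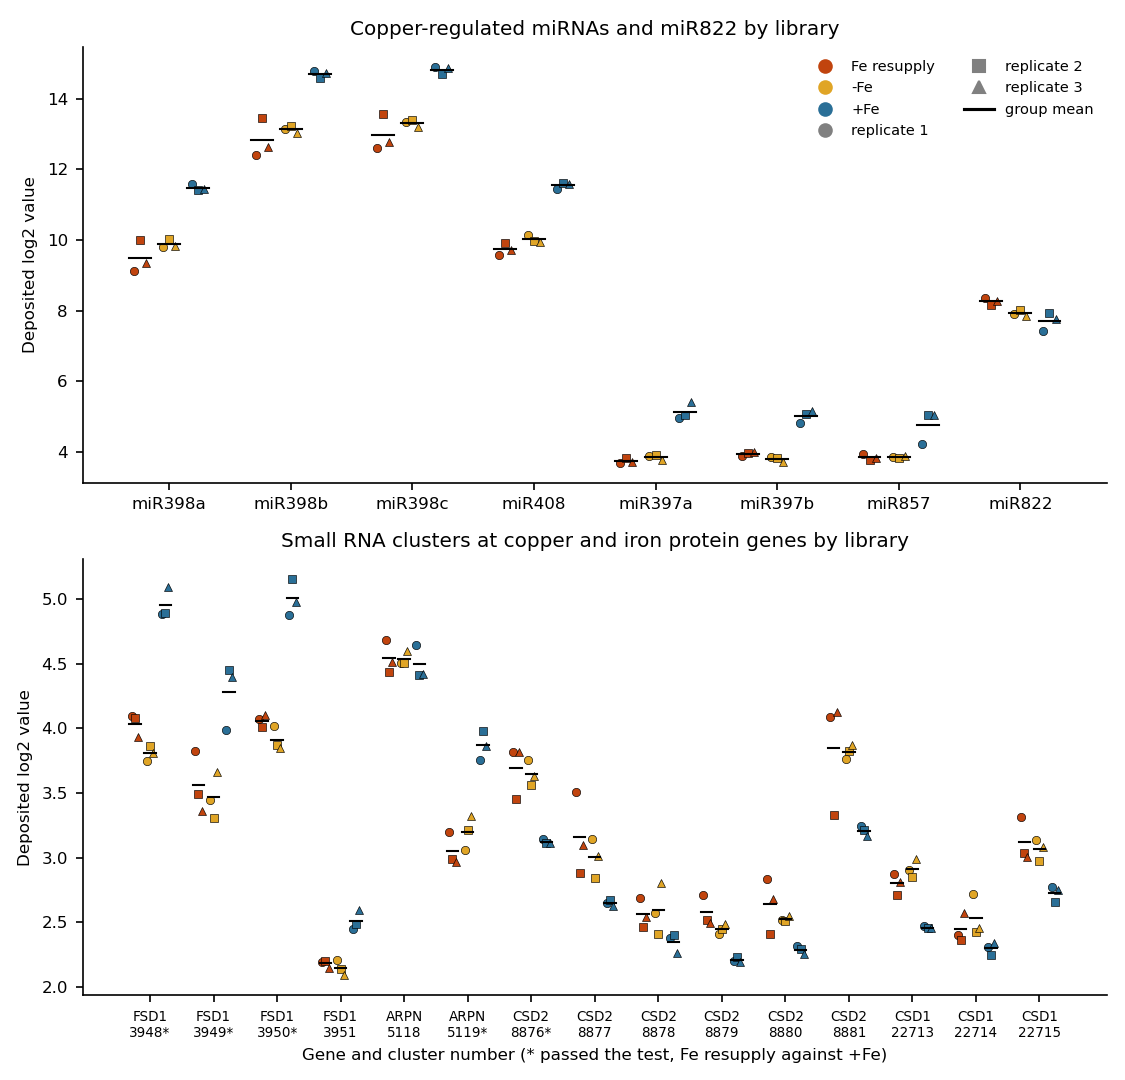
Deposited log2 values (vertical) of the 7 copper-regulated miRNA entries and miR822 (upper panel) and of the clusters at FSD1, ARPN, CSD2 and CSD1 (lower panel), with 1 symbol per library and a line at each group mean. The miR398, miR408, miR397 and FSD1 values of Fe resupply lie below all +Fe values, the CSD2 and CSD1 values above all of them, and Fe resupply replicate 2 (square) is nearest to +Fe for miR398 and most CSD2 clusters.

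Among the other miRNAs, MIR822 was the only entry that passed. It lies in a young miRNA gene and acts on mRNAs of proteins with DC1 domains, which are rich in cysteine and histidine. It had 8.36, 8.15 and 8.28 in Fe resupply and 7.90, 8.02 and 7.85 in -Fe, against 7.44, 7.94 and 7.76 in +Fe, so the groups were separated by only 0.2 log2 units. MIR822 differed by 0.55 ± 0.11 (limma, Benjamini-Hochberg adjusted p = 0.0627), and without +Fe replicate 1, its lowest library, it was 0.42 with an adjusted p of 0.319.

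The 292 entries outside the copper, phosphate and sulfate groups had a median log2 fold change of 0.03, with MIR822 the highest and the lowest at -0.49. The 9 entries of the phosphate-regulated miR399, miR827 and miR2111 lay between -0.15 and 0.02, and none passed. The 6 entries of miR395, which acts on sulfate uptake and assimilation, lay between -0.41 and 0.02 with a median of -0.25, and none passed. MIR173, which starts the production of trans-acting siRNAs at TAS1 and TAS2, had 11.86, 12.02 and 12.16 in Fe resupply, against 11.56, 11.66 and 11.53 in +Fe. Its log2 fold change of 0.42 ± 0.09 had a limma adjusted p of 0.0843 (Benjamini-Hochberg) but was under the fold limit, and it is named after its value was seen. At the 8 TAS loci none passed. The 4 clusters at TAS1A, TAS1B, TAS2 and TAS3 lay above +Fe without overlap, at 0.12 to 0.23 (background 5.35% of features), while TAS4 had 6.29, 5.40 and 5.75 in Fe resupply, against 6.29, 6.43 and 6.70 in +Fe (-0.66 ± 0.18, limma adjusted p = 0.34 by Benjamini-Hochberg).

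The 6 sequences without a position that were higher in Fe resupply were all 5′ fragments of tRNA-Gly with anticodon TCC. They differ from the tRNA by 1 missing U in the D-loop stretch, which is why they have no genome position, and are shown beside the whole form with that stretch in capitals.
whole form: gcgucuguaguccaacGGUUAGGaua
30-nt form ending in C: gcgucuguaguccaacGGUAGGauaauugc
30-nt form ending in U: gcgucuguaguccaacGGUAGGauaauugu
28-nt form ending in C: gucuguaguccaacGGUAGGauaauugc
28-nt form ending in U: gucuguaguccaacGGUAGGauaauugu
25-nt form: gcgucuguaguccaacGGUAGGaua
24-nt form: gcgucuguaguccaacGGUAGGau

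The forms ending in C, the 25-nt form and the 24-nt form match 12 annotated tRNA-Gly(TCC) genes with 1 edit, the missing U. Those ending in U need 2 edits.  The whole form is the most abundant RNA of Cluster_22950, at chr1:4285933-4285958 on the minus strand in the tRNA-Gly gene AT1G12590.

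The 28-nt form ending in C had 7.32, 8.03 and 7.83 in Fe resupply and 7.30, 6.57 and 7.15 in -Fe, against 6.86, 6.43 and 6.57 in +Fe. Its log2 fold change, 1.10 ± 0.17, was the largest rise of all features that passed (2.15-fold, limma adjusted p = 0.00426 by Benjamini-Hochberg). The 25-nt form had 7.79, 8.11 and 8.22 in Fe resupply and 7.33, 7.15 and 7.26 in -Fe, against 7.25, 6.87 and 7.24 in +Fe, a log2 fold change of 0.92 ± 0.12 (SE). These were the only features higher in Fe resupply that passed in all 6 fits without 1 library.

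The 30-nt form ending in C, the most abundant, had 9.74, 10.71 and 10.66 in Fe resupply and 9.80, 9.91 and 9.71 in -Fe, against 9.66, 8.94 and 9.70 in +Fe. Fe resupply replicate 1 was within 0.1 of the highest +Fe library. The log2 fold change of 0.93 ± 0.20 had a limma adjusted p of 0.0843 (Benjamini-Hochberg). It passed in 2 of the 6 fits without 1 library, with its highest adjusted p, 0.492, without Fe resupply replicate 3. Without Fe resupply replicate 2 it was 0.76 (adjusted p = 0.236) and without +Fe replicate 2 it was 0.69 (adjusted p = 0.278). The 30-nt form ending in U followed the same libraries, with 7.16, 7.73 and 7.79 in Fe resupply, against 7.0, 6.24 and 6.77 in +Fe (0.89 ± 0.17). It too passed in 2 of the 6 fits, with its highest adjusted p, 0.234, without Fe resupply replicate 3. The 28-nt form ending in U rose by 0.60 and the 24-nt form by 0.57.

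In all, 18 sequences lacked this U, of 22 to 31 nt. All 18 had a positive difference, with a median of 0.49 and a range of 0.07 to 1.10, 9 lay above +Fe without overlap (background 5.35%) and 6 passed. The set was put together after the passing members were seen, and its members are forms of 1 tRNA, so they are not independent. The 9 clusters with the whole form differed by only 0.03 to 0.09 and none passed or separated the groups. Cluster_22950 had 14.46, 14.75 and 14.82 in Fe resupply, against 14.73, 14.45 and 14.67 in +Fe, a difference of 0.06 ± 0.10 (SE). In the whole forms Fe resupply replicate 1 and +Fe replicate 2 were the low libraries, as they were in the 30-nt forms. The 417 clusters at tRNA genes had a median of -0.07 and none passed. Whether depth or RNA quality played a part in these differences was not tested.

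**Figure D3:**
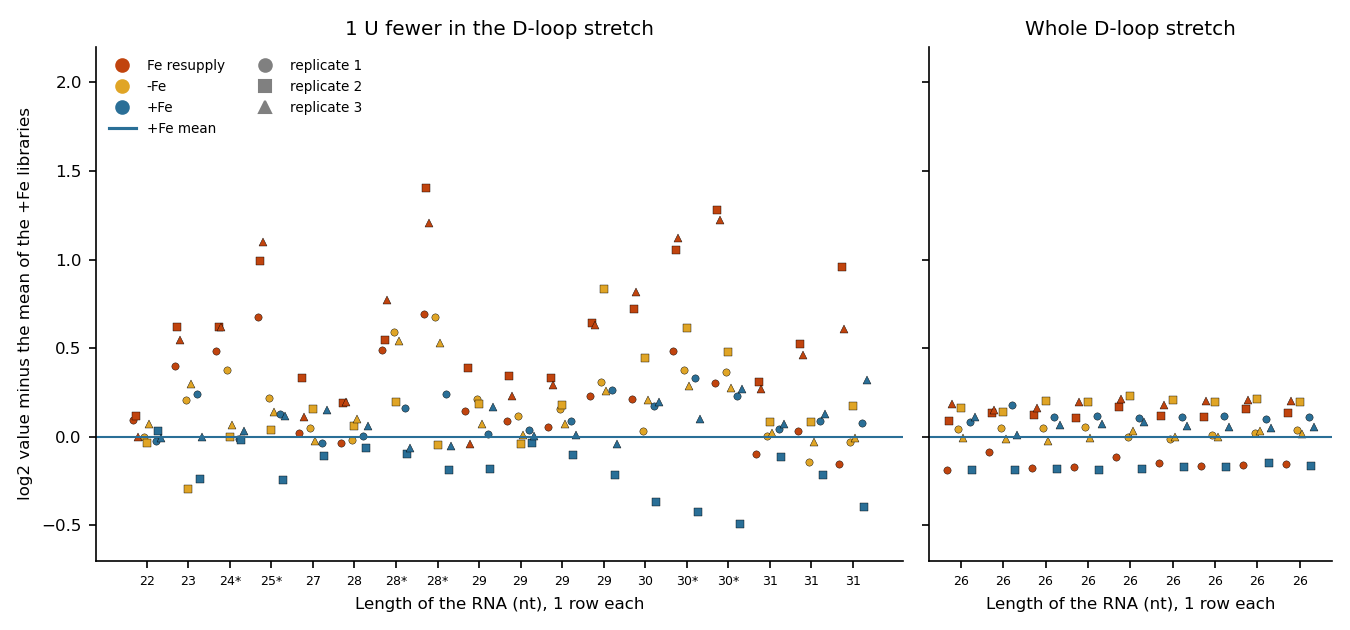
Log2 value minus the mean of the 3 +Fe libraries (vertical) for each tRNA-Gly(TCC) 5′ fragment, ordered by length in nt (horizontal), with a star where Fe resupply against +Fe passed and 1 symbol per library. The 18 forms with 1 U fewer have positive mean differences of up to 1.10 in Fe resupply, mostly through replicates 2 and 3, while the 9 whole forms stay within 0.03 to 0.09.

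The sequences without a position that were lower included 3 that end at the 3′ end of other tRNAs. They are printed because all 3 differ by 1 base from the tRNA with its tail, and capitals mark the CCA tail that is added to mature tRNAs, where the whole tail is present.
tRNA-Gln 20-nt form: cauuucucgguagaaccucc
tRNA-Gln 19-nt form: auuucucgguagaaccucc
tRNA-Pro form: ucguuucucggaaugccccCCA

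The tRNA-Gln forms match 4 tRNA-Gln(CTG) genes and the tRNA-Pro form matches 35 tRNA-Pro(TGG) genes and 1 tRNA-Pro(CGG) gene, all with 1 edit. The 19-nt tRNA-Gln form had 5.58, 5.19 and 4.98 in Fe resupply and 5.85, 5.84 and 5.96 in -Fe, against 5.93, 5.82 and 5.87 in +Fe. In this form the -Fe and +Fe libraries lay together and the Fe resupply libraries below both. The log2 fold changes were -0.62 ± 0.12, -0.60 ± 0.13 and -0.56 ± 0.11 (SE) for the 19-nt, 20-nt and tRNA-Pro forms. In the same fit the 19-nt form differed by -0.63 and the tRNA-Pro form by -0.62 in Fe resupply against -Fe (limma, Benjamini-Hochberg adjusted p = 0.0164 and 0.0144). The 20-nt form did not pass there (-0.45, adjusted p = 0.126), and its lowest -Fe library, at 6.11, lay just below Fe resupply replicate 1, at 6.12. The 3 forms were called on all libraries but passed in only 2 or 3 of the 6 fits without 1 library, and all missed without Fe resupply replicate 3. Replicate 3 was the lowest Fe resupply library in each of them.

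Among the passing clusters, 3 had an rRNA-like RNA as their most abundant. The stretch is known from the 25S rRNA of plants, and in TAIR10.1 it stands at chr2:6504-6520, which holds no annotated gene, and at chr3:14200475-14200491 in the noncoding gene AT3G06365, both 1 base away from the 17-nt RNA (A15G).
rRNA-like 17-nt: aaggacuuugaaaaaag
rRNA-like 18-nt: aaaggacuuugaaaaaag

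The 18-nt RNA is the most abundant of Cluster_10379, at chr3:2029183-2029206 in the protein-coding gene AT3G06530, where it maps to the minus strand with 1 substitution (G18A). This cluster had 12.81, 12.49 and 12.10 in Fe resupply and 13.17, 12.64 and 12.77 in -Fe, against 13.33, 13.14 and 13.05 in +Fe. Cluster_10379 differed by -0.71 ± 0.14 (limma, Benjamini-Hochberg adjusted p = 0.0624), and without Fe resupply replicate 3 it was -0.52 with an adjusted p of 0.348. The 17-nt RNA leads Cluster_16228, at chr5:2066239-2066335 in AT5G06700, which had 6.87, 6.55 and 6.45 in Fe resupply, against 7.59, 7.27 and 7.23 in +Fe. Cluster_16228 and Cluster_15802 (chr3:23072348-23072365) were lower by 0.74 and 0.68 log2 units. All 3 hold nearly the same RNA, each with 1 substitution at its own site, so they are not independent measurements. Of 9 clusters and 47 sequences without a position that share the core, 8 and 47 were negative, with medians of -0.23 and -0.18. This set was put together after the 3 passing clusters were seen and includes them, so its direction is no separate test. For all sequences without a position the median was -0.05, and for those of 17 to 19 nt it was -0.11.

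The clusters that passed at no listed gene were few. Cluster_12393 at chr3:11508920-11509816 overlaps the pseudogene AT3G29647 and is led by a 24-nt RNA at chr3:11509216-11509239, outside that gene. It had 7.06, 7.05 and 7.14 in Fe resupply and 6.63, 5.54 and 6.73 in -Fe, against 5.91, 5.89 and 6.51 in +Fe. The Fe resupply libraries were nearly identical while both other groups were spread (SD 0.05, 0.66 and 0.35, n = 3 each). Its log2 fold change of 0.98 ± 0.21 was the largest rise at a cluster, 1.97-fold (limma, Benjamini-Hochberg adjusted p = 0.0889). Cluster_5225, at chr2:1178611-1179356 with no annotated gene and also led by a 24-nt RNA, had 5.71, 5.87 and 6.10 in Fe resupply and 5.0, 4.66 and 5.05 in -Fe, against 4.97, 5.64 and 4.75 in +Fe (0.77 ± 0.16). Each of these 2 passed in only 2 of the 6 fits without 1 library.

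Cluster_8659, at chr2:11010799-11011120 with no annotated gene, had 4.4, 4.18 and 5.06 in Fe resupply and 4.33, 3.89 and 4.48 in -Fe, against 5.47, 5.32 and 5.86 in +Fe. Its log2 fold change, -1.0 ± 0.18, was the largest fall at a cluster outside the miRNA genes. It passed in 5 of the 6 fits and missed without +Fe replicate 3 (adjusted p = 0.224). Cluster_3063, at chr4:8297113-8298517 in ACD6, which encodes an ankyrin-repeat membrane protein of plant defence, had 3.47, 3.54 and 3.54 in Fe resupply, against 4.16, 3.84 and 4.28 in +Fe (-0.57 ± 0.10). Cluster_14360, at chr3:16238346-16238494 with no annotated gene, had 4.97, 4.72 and 5.24 in Fe resupply, against 5.65, 5.51 and 5.46 in +Fe (-0.56 ± 0.11). One further passing sequence of 28 nt, lower by 0.56 log2 units, matched no annotated small RNA gene within 2 edits and is not described further.

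Clusters at the listed iron regulators and at ferritin and iron-sulfur protein genes did not pass, unlike 3 at FSD1. At 11 of 16 listed iron regulators, which include the bHLH factors of the Ib group, the E3 ligase BTS, the IMA peptides and the transporter OPT3, there were 27 clusters. None passed in Fe resupply against +Fe, and their log2 fold changes lay between -0.31 and 0.08 with a median of -0.02. Fe resupply lay below +Fe without overlap in 2 of the 27 (background 5.73%) and above in none (background 5.35%). In the -Fe against +Fe contrast of the same fit, 11 of the 27 were higher in -Fe (background 0.268%) and none lower, with a median of 0.50. The 8 clusters at BTS, for example, differed by -0.06 to 0.08 in Fe resupply and by 0.32 to 0.96 in -Fe, each against the same +Fe libraries. Of these, Cluster_11125 had 4.43, 4.99 and 5.20 in Fe resupply and 5.49, 6.30 and 5.67 in -Fe, against 4.81, 4.79 and 4.97 in +Fe. Fe resupply replicate 1 was the lowest of the 9 libraries here, and Fe resupply and +Fe overlapped.

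The 7 clusters at ferritin and iron-sulfur protein genes lay between -0.07 and 0.18 and none passed. Cluster_23029, at chr1:4662142-4663467, overlaps AT1G13608 and AT1G13609 on the plus strand, opposite which the study places the long noncoding RNA COS. COS is not in the annotation used here, and the most abundant RNA of the cluster maps to the minus strand with 1 substitution (G6C), so reads of COS and of these genes were not separated. The cluster had 4.73, 4.58 and 4.74 in Fe resupply and 5.55, 6.69 and 5.69 in -Fe, against 4.88, 4.51 and 4.70 in +Fe. Fe resupply and +Fe overlapped, with a difference of -0.01 ± 0.19 (limma, Benjamini-Hochberg adjusted p = 0.999), while -Fe lay above both.

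By length of the most abundant RNA, passing lower features were most numerous at 21 nt and passing higher features above 24 nt. Several of them are forms of the same RNA, so they are not independent. For clusters and sequences without a position together, all 7 that passed at 17 to 19 nt and all 3 at 20 nt were lower. They were 0.132% of 5313 and 0.224% of 1337 features, while over all tested features 0.127% passed and 0.0935% were lower. Among them are the 3 rRNA-like clusters, both tRNA-Gln forms, the ARPN cluster, the miR408 variant and miR398 variant 1. At 21 nt 1 was higher and 8 lower (0.441% of 2039), 7 of these 9 at the copper miRNA genes. At 22 nt 1 was higher and 1 lower (0.0861% of 2322), and at 23 nt 2 were lower (0.0482% of 4152). At 24 nt, the length of most heterochromatic siRNAs and by far the largest class, 3 were higher and 2 lower (0.0332% of 15048). Above 24 nt 5 were higher and 1 lower (0.228% of 2634), and the 5 are tRNA-Gly fragments.

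The medians of all features differed only slightly between lengths. They were -0.05 at 17 to 19 nt, -0.04 at 20 nt, -0.02 at 21 nt, -0.01 at 22 nt, 0.01 at 23 nt, 0.02 at 24 nt and -0.03 above 24 nt. Fe resupply lay below +Fe without overlap in 9.73% of features at 17 to 19 nt and 3.44% at 24 nt (background 5.73%). This share was 9.95% at 20 nt, 8.78% at 21 nt and 6.33% at 22 nt. It was 4.53% at 23 nt and 7.1% above 24 nt. Fe resupply lay above +Fe without overlap in 1.94% at 17 to 19 nt and 6.87% at 24 nt (background 5.35%). In the other length classes the share above +Fe lay between 2.62% and 6.02%. All 21 clusters that passed were nuclear, and none of the 144 mitochondrial or 12 chloroplast clusters passed.

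**Figure D4:**
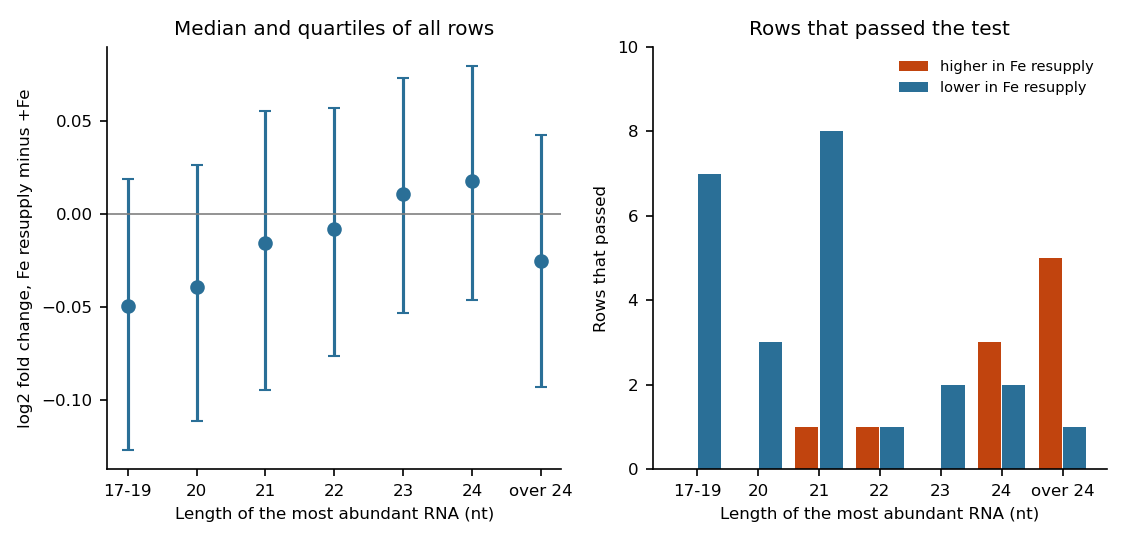
Left, median log2 fold change of Fe resupply minus +Fe with quartiles (bars) for all clusters and sequences without a position, by length of the most abundant RNA in nt. Right, the number of those features that passed, higher or lower in Fe resupply. The medians lie between -0.05 and 0.02, the passing features of 17 to 20 nt are all lower and 5 of the 6 above 24 nt are higher.

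Summed over clusters, 6 of the 7 length classes overlapped between Fe resupply and +Fe. Clusters of 24 nt took 9.95%, 12.1% and 10.8% of the back-transformed total in Fe resupply (10.9% ± 1.07, SD, n = 3), against 10.4%, 10.5% and 10.6% in +Fe (10.5% ± 0.132, SD, n = 3). Fe resupply replicate 2 was the highest of all 6 and replicate 1 the lowest. The 21-nt class was the only one whose groups did not overlap as a sum, with a log2 difference of -0.09. Its two-sided exact permutation p was 0.1, the smallest that 3 against 3 allows, and 0.7 after Benjamini-Hochberg adjustment over 7 classes. As a share of the total the 21-nt class did overlap, with 3.55%, 4.04% and 3.64% in Fe resupply, against 3.84%, 3.88% and 3.96% in +Fe. Sums carry the total of each library, and the back-transformed total of all features was lowest in Fe resupply replicate 2. This 21-nt class includes the abundant clusters at MIR398b and MIR398c, with log2 fold changes of -1.87 and -1.84. The sum without them was not taken. For the other 6 classes the differences lay between -0.06 and 0.05 with an exact permutation p of 0.5 or more.

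The effect of Fe resupply replicate 2 was examined as planned. This library stood apart in the first principal component, taken over the 20814 features that averaged 10 or more after back-transformation. Its loading was 0.62, against -0.05 and 0.26 for the other Fe resupply libraries and 0.03 to 0.17 for +Fe. That component held 24.2% of the variance. Among the same 20814 features, a library lay apart from both other replicates in 208 for replicate 2, 219 for replicate 1 and 72 for replicate 3. By this measure replicate 1 stood as far from its group. Library weights estimated by limma were 0.84, 0.795 and 1.26 for replicates 2, 1 and 3. Among the 42 passing features, replicate 2 was the Fe resupply library nearest to +Fe in 19, replicate 1 in 18 and replicate 3 in 5.

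Without Fe resupply replicate 2, 76 features passed (0.229%), 25 higher and 51 lower. Of the 42, 35 still passed, 7 did not, and 41 were gained (34 clusters, 4 miRNA entries and 3 sequences without a position). All copper miRNA entries, Cluster_8876, 3 FSD1 clusters and 4 of the 6 passing tRNA-Gly forms were among the 35. Of the 7 that were lost, the 5 with the largest values were Cluster_12393 (1.0 without replicate 2, limma adjusted p = 0.139 by Benjamini-Hochberg), the 30-nt tRNA-Gly forms ending in U and in C (0.80 and 0.76), Cluster_5225 (0.78) and the 20-nt tRNA-Gln form (-0.59). The other 2 were the tRNA-Pro form and Cluster_14360.

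The 5 gained features with the largest values were clusters. Cluster_26749, at the protein-coding gene AT1G49260, had 5.53 and 5.89 in Fe resupply replicates 1 and 3 and 6.73 in replicate 2, against 6.70, 7.19 and 7.53 in +Fe. Replicate 2 thus lay within 0.04 of the lowest +Fe library, and the log2 fold change was -1.43 without it (limma, Benjamini-Hochberg adjusted p = 0.00479). Cluster_26890 (no annotated gene) and Cluster_11497 (AT3G23650 and AT3G04585) were lower by 0.98 and 0.89 log2 units. Cluster_8881 at CSD2 and Cluster_4255 (no annotated gene) were higher by 0.90 and 0.86 log2 units. Cluster_8877 at CSD2 was also gained, at 0.65, so 3 of the 6 CSD2 clusters passed without replicate 2. Of the 41 gained features 17 had a 24-nt RNA, 5 higher and 12 lower, and 24-nt features were 15048 of the 33159 tested. Among the gained miRNA entries were MIR850 (0.56) and MIR863 (0.60), both within AT4G13495, MIR5020b (0.51) and MIR169e (-0.50). A cluster at the copper chaperone gene CCH, Cluster_15436, was lower by 0.54 log2 units, and these miRNAs and CCH are named after their values were seen.

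Leaving out each of the other libraries moved the count as well, to 122 without Fe resupply replicate 1, 30 without replicate 3, and 36, 65 and 26 without +Fe replicates 1, 2 and 3. Of the 42 features, 41, 25, 30, 34 and 24 were kept in these fits. In all 6 fits 20 of the 42 passed, 18 lower and 2 higher. The 18 were the entries and clusters of miR398, miR408 and miR397, Cluster_3948 and Cluster_3950 at FSD1, the ARPN cluster, and the passing miR398 and miR408 variants. The 2 higher were the 28-nt form ending in C and the 25-nt form of tRNA-Gly.

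**Figure D5:**
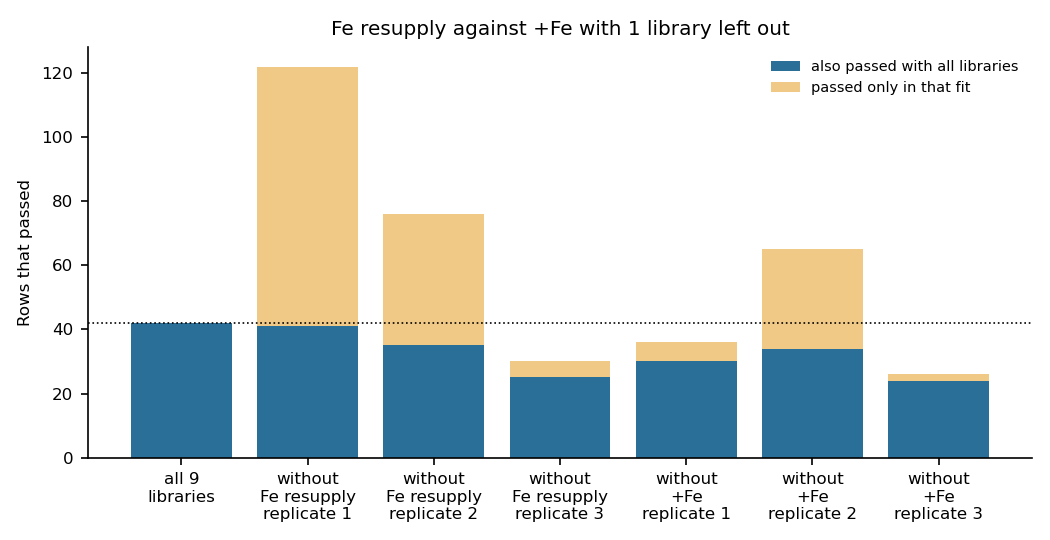
Number of features that passed in Fe resupply against +Fe (vertical) with all 9 libraries and with 1 library left out (horizontal). Blue is the part also among the 42 of the full fit (dotted line) and yellow the part gained, so 24 to 41 of the 42 are kept while the total runs from 26 to 122.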

How the data were processed

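sRNA-seq of shoots was analysed for 9 libraries, 3 each of Fe resupply, -Fe and +Fe, assigned by the column headers and sample labels. The authors trimmed adapters with Cutadapt, called and counted loci with ShortStack and normalized with DESeq2 on TAIR10 (versions not given in the sources used here). The deposited values are log2 normalized, not counts, so the depth of the libraries is unknown and count tests were not run. Negative values and little spread at low levels have the form of a regularized logarithm, which is not named; fold changes of low features are then understated.

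limma 3.58.1 in R 4.3.3 was fitted over all 9 libraries (eBayes with a trend), and p-values were adjusted by Benjamini-Hochberg over 33159 features. Passing meant an FDR below 0.1 together with a log2 fold change of 0.5 or more in size, the limits of the study. No value column was left out. Sequences were read from the table and placed on TAIR10.1 (RefSeq): of 28897 nuclear clusters 26376 (91.3%) held their most abundant RNA exactly and 2521 with 1 substitution. A cluster belonged to a gene it overlapped by 1 nt. Sequences without a position were matched to annotated RNAs within 2 edits with edlib. Length sums used two-sided exact permutation tests. The fit was tested on simulated data.

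Named were all passing miRNA entries, the copper miRNA entries, the largest passing changes among clusters and sequences without a position, passing features at listed genes, the cluster at the COS locus and features whose call depended on Fe resupply replicate 2. The features and gene lists were chosen with earlier results of these data known. Replicate numbers were not used to pair the samples in the main fit. Same-numbered Fe resupply and +Fe libraries had correlations of deviations of -0.00, 0.03 and -0.04. With 3 libraries a group, these values cannot exclude a batch shared by replicate number. The alternatives were filters, pseudocounts, scalings, other fits and limits, a block for replicate number, library weights and each library left out.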

Additional observations from a re-analysis of the deposited data

How the results depend on the processing

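No named passing feature changed direction under an alternative in which it was tested; the filters on low values removed some of them. The count of 42 moved by over 1.5 times to 13 when only features averaging 50 or more after back-transformation were tested, to 25 with a pseudocount of 10, to 13 with a log2 fold change of at least 1 and to 144 without all replicates numbered 2, which like library weights was chosen after seeing the data. With 1 library left out it ran from 26 to 122. Other filters, scalings, limits and weights gave 32 to 58. With the replicate number as a block 75 features passed, the 42 among them. The labels give only a shared number, and the pairing check given with the processing does not settle whether it marks a batch. For 21-nt sums, the log2 difference of -0.09 was -0.0070 as the median over clusters and -0.029 after quantile normalization; the cause was not tested. It ran from -0.10 to -0.08 with 1 library left out. Of the 42, 22 missed the threshold in at least 1 fit without 1 library. Without counts, depth limits cannot be given, and 3 libraries a group leave p = 0.1 as the smallest exact value.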
